A study of Rattus norvegicus with 4 samples.

Results

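A set of 5 peptide hormones of gastric endocrine and nerve cells were examined: somatostatin (Sst), ghrelin (Ghrl), gastrin (Gast), cholecystokinin (Cck) and galanin (Gal). The set comprised all probe sets of the deposited value table whose platform gene symbol is one of these names, which gave 5 probe sets, 1 for each of the 5 genes, of 15866 probe sets and 10411 named genes in all. The tissue was the scraped lining of the gastric corpus (oxyntic mucosa) of female Sprague-Dawley rats, 8 weeks old, in a 21-day study. The octreotide LAR group received the depot form of octreotide, a long-lived somatostatin analogue, at a labelled dose of 5 mg per animal, and was hybridised as 3 pools of RNA from 2 animals each, called pools 1, 2 and 3 here. The vehicle group received the depot's vehicle and was hybridised as a single pool of RNA from 8 animals. All animals were fasted overnight and anaesthetised with fentanyl, haloperidol and midazolam before the tissue was taken, per the labels' protocols. The vehicle value is therefore 1 measurement with no error of its own.

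Each of these peptides is cut from a longer precursor and stored in granules. D cells release somatostatin, which restrains gastrin, histamine and acid release; octreotide acts at the same receptors, which couple to inhibitory G proteins and lower cyclic AMP in the cell. A-like cells of the oxyntic glands release ghrelin, which stimulates appetite and growth hormone release, while the G cells that release gastrin, the hormone that drives histamine release from enterochromaffin-like (ECL) cells, lie mainly in the neighbouring antrum. Cholecystokinin is best known from the upper intestine and from nerve cells and ends in the same amidated residues as gastrin, and galanin is a neuropeptide of the enteric nerves that inhibits ECL cells in the rat.

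The promoter windows of 3 of these genes are shown because somatostatin receptors act on cyclic AMP, and the rat Sst promoter carries the textbook cyclic AMP response element. The letters are from RefSeq (GRCr8), 250 bases before and 50 bases after each annotated gene start, 5′ to 3′ on the gene's strand, with the matches in capitals. The motifs searched were the full element TGACGTCA and its shorter form TGACG, which lies within it, on both strands, and the TATA box letters TATAAA and TATATA on the gene's strand. The windows lie at chr11:90461296-90461595 (plus strand) for Sst, chr10:85764966-85765265 (plus strand) for Gast and chr1:210084523-210084822 (minus strand) for Gal.
Sst: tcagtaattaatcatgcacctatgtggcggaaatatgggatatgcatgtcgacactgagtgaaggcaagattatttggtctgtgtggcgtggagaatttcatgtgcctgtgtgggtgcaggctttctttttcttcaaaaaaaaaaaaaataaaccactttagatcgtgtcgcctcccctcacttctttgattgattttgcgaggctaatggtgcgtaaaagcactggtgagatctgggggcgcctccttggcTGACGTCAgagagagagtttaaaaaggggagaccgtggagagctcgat
Gast: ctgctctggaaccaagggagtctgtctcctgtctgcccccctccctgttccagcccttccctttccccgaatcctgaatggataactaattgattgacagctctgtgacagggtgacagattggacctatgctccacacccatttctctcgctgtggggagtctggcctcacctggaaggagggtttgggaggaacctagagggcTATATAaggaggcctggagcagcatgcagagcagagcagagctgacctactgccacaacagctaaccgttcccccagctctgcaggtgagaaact
Gal: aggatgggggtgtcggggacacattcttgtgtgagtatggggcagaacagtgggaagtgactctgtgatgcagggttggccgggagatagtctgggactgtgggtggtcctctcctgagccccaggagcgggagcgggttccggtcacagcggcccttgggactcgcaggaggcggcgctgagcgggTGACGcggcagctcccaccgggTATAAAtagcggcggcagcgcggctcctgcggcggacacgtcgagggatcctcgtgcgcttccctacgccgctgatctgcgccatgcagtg

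The Sst window holds TGACGTCA at bases 3 to 10 after the annotated start, a string found in 1.83% of 33469 promoter windows of the same length. All positions are counted from the annotated gene start. Whether transcription begins at that base was not examined, so these positions do not place a match before or after the true start. The Gal window holds TGACG at bases -63 to -59 and TATAAA at -41 to -36, and the shorter element is found in 21.2% and TATAAA in 8.8% of all windows. The Gast window holds TATATA at bases -45 to -40, as do 6.15% of all windows somewhere. The Ghrl window, also from RefSeq, holds no match to these letters. A match is a run of letters only; no binding was measured.

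Signals were linear chip intensities, tested as log2(signal + 16), so that folds of dim genes are understated; levels are not compared between genes, because probe sets differ in brightness. Probe sets whose mean log2 value over the 4 chips reached that of a signal of 144.7 were tested, 9520 in all, and all 5 hormone probe sets were among them. The median signal lay between 223.7 and 233.4 on the treated chips, against 225.9 on the vehicle chip. The defining genes of the oxyntic mucosa were bright on every chip. Atp4a and Atp4b, the proton pump subunits of parietal cells, lay between 23835 and 42462 over all chips, and Pgc and Cblif, the pepsinogen and intrinsic factor of chief cells, between 19109 and 61846. Genes of the keratinising squamous lining of the adjoining forestomach were higher on the treated chips: 13 of the 14 listed had a probe set, all 13 were higher in the mean and 6 passed the test (0.0945% of all probe sets tested were called higher), and their summed signal was 6232 to 9751 on the treated chips, against 1940 on the vehicle chip. For 7 of these 13 squamous genes the vehicle signal lay under the level required for testing. Those of them that were tested reached that level only through the treated chips. None of the listed markers was at 0 on any chip. The part of this difference in the results below was not tested.

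The octreotide LAR pools were set against the vehicle pool to ask whether the transcripts of the stomach's own peptide hormones differed after a depot of a somatostatin analogue. None of the 5 hormones passed the threshold. Sst and Ghrl, the products of the D and A-like cells of the oxyntic glands, had treated values on either side of the vehicle value. Gast was high on pool 1 and near the vehicle value on the other 2 pools. Cck and Gal were lower than vehicle on every treated chip, by 0.58 and 0.48 on the log2 scale. Over the whole table limma called 10 of 9520 probe sets at an adjusted p under 0.05, which is 0.105%, and 4.57% had an unadjusted p under 0.05; of the hormones, 0 of 5 had either. Treated values lay below the vehicle value on every chip for 2 of the 5 hormones, against 24.0% of all probe sets tested. In scraped tissue, fewer cells of a type and less RNA per cell cannot be told apart.

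**Figure D1:**
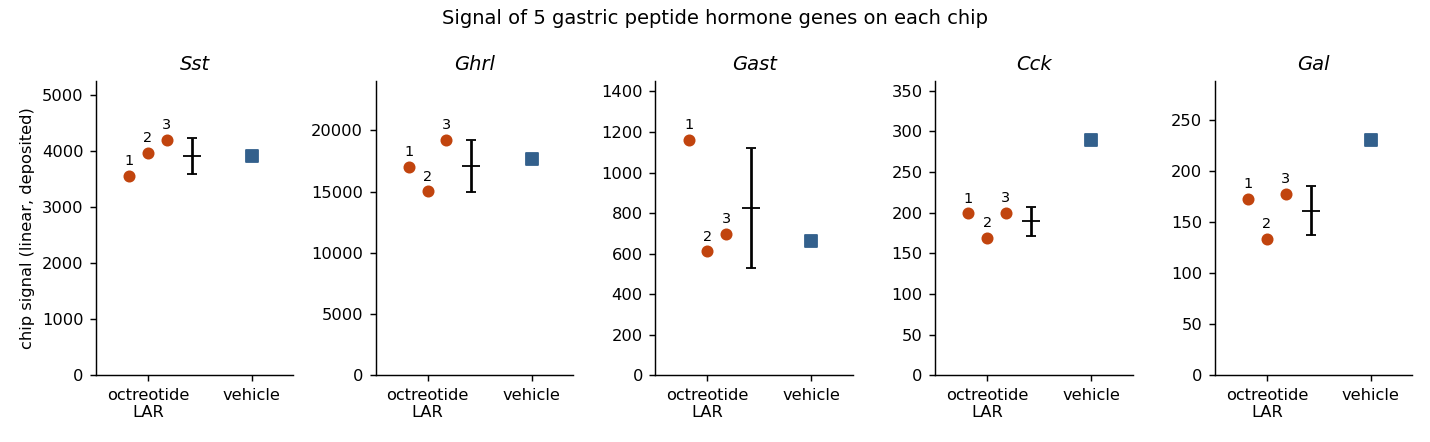
Chip signal (linear scale from 0) of the 5 hormone genes on each chip. Orange points are octreotide LAR pools 1 to 3 (2 animals each) with their mean and SD in black, and the blue square is the single vehicle pool (8 animals); the treated points lie around the square for Sst and Ghrl, pool 1 stands above the rest for Gast, and all treated points lie under the square for Cck and Gal.

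Somatostatin is the natural ligand of the receptors that octreotide activates. Sst had signals of 3554.6, 3958.5 and 4193.5 in pools 1, 2 and 3 of the octreotide LAR group, against 3908.8 on the vehicle chip. The treated values spanned the vehicle value, with 1 pool below it and 2 above. The treated mean was 3902 ± 323 (SD, n = 3), and the pools differed by at most 1.18-fold. The log2 difference was -0.01 with a standard error of 0.17 and its 95% interval ran from -0.36 to 0.35 (limma adjusted p = 0.9998, unadjusted p = 0.97). As folds of treated over vehicle, that interval runs from 0.777 to 1.28. It is an unadjusted interval around the estimate and not a limit of detection. A change outside it need not have passed the adjusted threshold: Chga, a granin, was at -0.80 and did not (limma adjusted p = 0.15). The spread of Sst between the treated pools, an SD of 0.12 on the log2 scale, was that of its surroundings: the median over the 500 tested probe sets nearest to it in level was also 0.12.

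Ghrelin is made mainly in the stomach. Ghrl had signals of 17039.7, 15019.2 and 19230.6 in pools 1, 2 and 3 of the octreotide LAR group, against 17694.3 on the vehicle chip. Pools 1 and 2 were below the vehicle chip and pool 3 above it, so the groups overlapped. The treated mean was 17096 ± 2106 (SD, n = 3), and the log2 difference was -0.06 and its 95% interval ran from -0.41 to 0.30 (limma adjusted p = 0.9998, unadjusted p = 0.74). Sst was lowest on pool 1 and Ghrl on pool 2, and both were highest on pool 3.

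Gastrin differed most between the treated pools. Gast had signals of 1160.8, 611.1 and 696.7 in pools 1, 2 and 3 of the octreotide LAR group, against 664.9 on the vehicle chip. Pool 1 was far above the other chips, pool 2 was slightly below the vehicle chip and pool 3 slightly above it. On the log2 scale the pools differed from vehicle by 0.79, -0.12 and 0.07. The treated mean was 823 ± 296 (SD, n = 3), a coefficient of variation of 35.9%, where Sst had 8.28% and Ghrl 12.3%. The SD of the 3 treated log2 values was 0.48, larger than in 98% of the 500 tested probe sets nearest to Gast in level, whose median was 0.17. The log2 difference from vehicle was 0.25 and its 95% interval ran from -0.39 to 0.88 (limma adjusted p = 0.9998, unadjusted p = 0.42). Without pool 1 it was -0.026, so the positive mean rests on that pool.

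Markers of the tissue around the oxyntic mucosa were set beside Gast, because gastrin cells lie mainly in the antrum. Pdx1, a transcription factor of the antrum and duodenum, was too dim to test, with signals of 46.8, 81.3 and 66.5 in treated pools 1, 2 and 3, against 56.3 on the vehicle chip. Tff2, a trefoil peptide of mucous neck cells and antral glands, had 9203.8, 11251.5 and 8483.4 on the treated chips, against 6470.4 on the vehicle chip. Of the 13 listed antral and intestinal markers 10 had a probe set and 6 were tested. In the mean 6 of the 10 were higher and 4 lower, beside 50.6% lower over all genes. Fabp2, which binds fatty acids in absorptive cells, was the 1 member that passed (0.0945% of all probe sets tested were called higher). The summed signal of the 10 markers was 11420 to 14467 on the treated chips, against 8454 on the vehicle chip. Of that sum Tff2, a gene of mucous neck cells as well, gave 8483.4 to 11251.5 and 6470.4. Fabp2 gave 1081.8 to 1488.1 and 533.2. The median log2 difference of the squamous list was 1.98 on pool 1, 1.53 on pool 2 and 1.38 on pool 3. Pool 1 was thus the highest for both Gast and the squamous list, and the part of the tissue scraped in the Gast value was not tested.

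Cholecystokinin was the hormone with the largest difference. Cck had signals of 199.2, 169.1 and 199.9 in pools 1, 2 and 3 of the octreotide LAR group, against 289.6 on the vehicle chip. All treated values were below the vehicle value and within 1.18-fold of each other. The treated mean was 189 ± 17.6 (SD, n = 3), and the log2 difference was -0.58 with a standard error of 0.32 and its 95% interval ran from -1.27 to 0.11, a level 1.49-fold higher in the vehicle pool on this scale (limma adjusted p = 0.9998, unadjusted p = 0.095). Its p was at rank 839 of the 9520 tested. The difference was larger than the SD between the treated pools, 0.13 on the log2 scale. That SD was smaller than is usual for so dim a signal, since the 500 tested probe sets nearest in level had a median of 0.26, and the test weighs both.

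Galanin followed a similar course. Gal had signals of 172.8, 133.5 and 177 in pools 1, 2 and 3 of the octreotide LAR group, against 230.1 on the vehicle chip. All treated values were below the vehicle value, with pool 2 the lowest, as for Cck. The treated mean was 161 ± 24.0 (SD, n = 3), and the log2 difference was -0.48 and its 95% interval ran from -1.25 to 0.28 (limma adjusted p = 0.9998, unadjusted p = 0.20). Both genes were dim: their mean signals over all chips were 1.48 and 1.23 times the level required for testing. No detection calls were used here, so it is not known whether these signals stand above background.

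Cck and Gal occur in nerve cells as well as endocrine cells, and markers of nerve and muscle were therefore set beside them. Of the 17 listed markers of enteric neurons and glia, 13 had a probe set, 7 were lower and 6 higher in the mean, 4 were bright enough to test and none passed. Their summed signal was 1950 to 2086 on the treated chips, against 1917 on the vehicle chip, and their median log2 difference was -0.03. That sum includes Elavl4, too dim to test, with 132.5, 83 and 130.2 on the treated chips, against 20.2 on the vehicle chip. Of the 4 tested, 3 were lower in the mean, and the median log2 difference of the tested markers was -0.12. Snap25, a synaptic fusion protein, had 303.9, 316.7 and 312.4 on the treated chips, against 338.6 on the vehicle chip, and Uchl1, an abundant neuronal ubiquitin hydrolase, had 259.8, 219.3 and 240.5, against 264.6. Prph, a neuronal intermediate filament, was above vehicle on every treated chip, with 239.2, 212.1 and 195.9 against 167.1. The 9 listed smooth muscle markers all had a probe set that was tested; 5 were higher and 4 lower in the mean and none passed, with a summed signal of 51625 to 67704 on the treated chips, against 58704 on the vehicle chip.

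**Figure D2:**
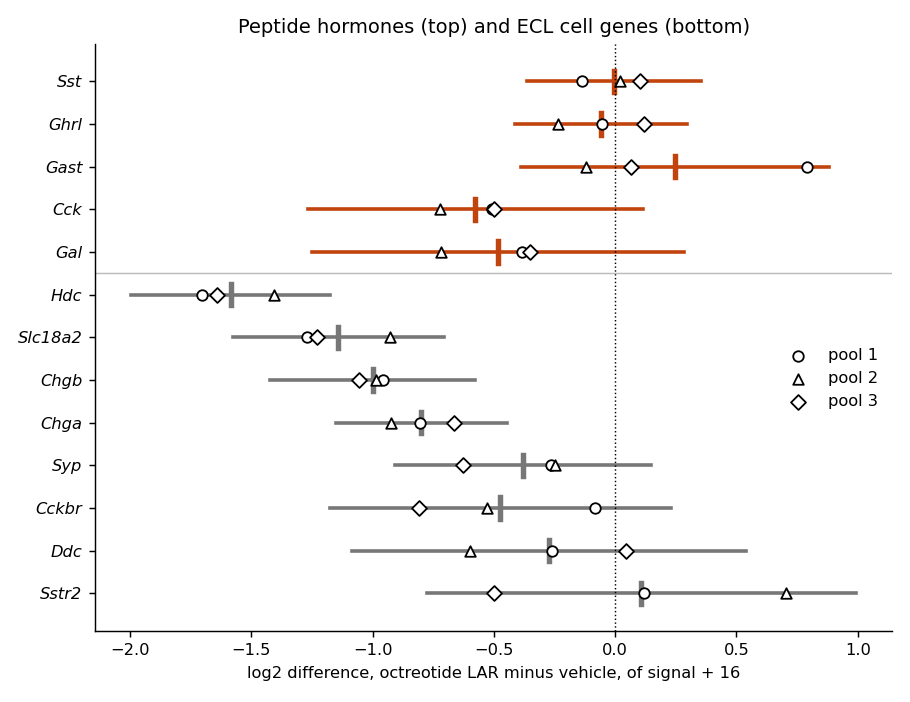
Log2 difference (octreotide LAR minus vehicle, of signal + 16) for the 5 hormone genes above the grey line and the 8 tested genes of the ECL list below it, by p. Open symbols are pools 1 to 3, the upright bar is the mean and the horizontal line its 95% limma interval; the intervals of all 5 hormones and of 4 of the 8 ECL genes (Syp, Cckbr, Ddc and Sstr2) include 0, those of Hdc, Slc18a2, Chgb and Chga do not, and of all these genes only Hdc passed the adjusted threshold.

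The ECL cell shares the oxyntic glands with the D and A-like cells and stores histamine in similar granules. Hdc, the enzyme that forms histamine, had a log2 difference of -1.59 (limma adjusted p = 0.0027), and no other probe set was called lower (0.0105% of those tested). The Hdc call was lost without the filter on dim probe sets (limma adjusted p = 0.095) and without the trend of the spread (0.15). With 1 treated pool left out, its log2 difference ran from -1.67 to -1.53, in fits that rest on fewer chips. Of the 10 listed ECL genes 9 had a probe set; 8 had a lower treated mean and 6 were below vehicle on all 3 pools, beside 50.6% and 23.8% of all genes, and the median log2 difference was -0.47. The interval of Sst, from -0.36 to 0.35, and that of Ghrl, from -0.41 to 0.30, lie above that of Hdc, from -1.995 to -1.17. Slc18a2, which loads histamine into granules, was at -1.14 and Chgb, a granin of endocrine granules, at -1.001; neither passed over all probe sets (limma adjusted p = 0.056 and 0.11). These are intervals of separate genes on the same chips; the difference between genes was not tested.

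Receptors of the 5 hormones were dim. Of the 11 listed, 10 had a probe set and 4 were tested, and none passed; over the 10, 5 were lower and 5 higher in the mean, and the median log2 difference was 0.01, beside -0.01 over all probe sets. Cckbr, the receptor through which gastrin acts on ECL and parietal cells, had 329.3, 237.2 and 192.3 in pools 1, 2 and 3 of the octreotide LAR group, against 349.3 on the vehicle chip, and all treated values were below it. Ghsr, the ghrelin receptor, had 106, 252.2 and 203.3, against 159.9 on the vehicle chip, and the groups overlapped. Sstr2, the main receptor of octreotide, ranged from 139.4 to 342.8 on the treated chips, against 203.9 on the vehicle chip.

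Galr2, a galanin receptor, had 80.3, 83.1 and 119.1 on the treated chips, against 244.1 on the vehicle chip. All treated values were lower, but the mean over the chips did not reach the level required for testing. Galr1, another galanin receptor, had 48.2, 50.8 and 19.6, against 50.8 on the vehicle chip. Galr3, Sstr1, Sstr4 and Sstr5 were also too dim to test.

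The enzymes that cut, trim, amidate and sulphate these precursors did not move together. Of the 14 listed, 12 had a probe set and 9 were tested; 6 were lower and 6 higher in the mean, none passed, and the median log2 difference was 0.05. Pam, which adds the terminal amide that gastrin, cholecystokinin and galanin need, had 3079.8, 3089.5 and 2452.2 in treated pools 1, 2 and 3, against 3820.1 on the vehicle chip. Pam was lower on every treated chip, with a log2 difference of -0.42 (limma adjusted p = 0.9998, unadjusted p = 0.039). Cpd, a carboxypeptidase of the secretory pathway, had 9517.3, 9654 and 8248.7, against 7033.3, and was higher on every treated chip by 0.37 (limma adjusted p = 0.9998, unadjusted p = 0.034). Pam has 3 probe sets and Cpd 2, and only the brightest of each is given here.

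Cpe, the carboxypeptidase of endocrine granules, had 5397, 5458 and 6405.2 on the treated chips, against 5816.9 on the vehicle chip, and the groups overlapped. Scg5, the chaperone of the convertase Pcsk2, had 603.2, 757.2 and 821.2, against 956.8, and was lower on every treated chip by 0.40 (limma unadjusted p = 0.10). Pcsk2 itself was too dim to test, with 8.7, 7.9 and 51.6 against 107. Tpst2, which sulphates tyrosines such as that of cholecystokinin, had 503.2, 527.5 and 528.8 against 397.6, higher on every treated chip by 0.37 (limma unadjusted p = 0.13). Pcsk1, the convertase of many gut hormones, and Mboat4, which acylates ghrelin, had no probe set named here.

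Of the 30 other gut and nerve peptides listed, 25 had a probe set; 11 were lower and 14 higher in the mean, 8 were lower and 7 higher on every treated chip, and the median log2 difference was 0.04. For 17 of the 25 the vehicle signal lay under the level required for testing. Of the 7 bright enough to test, 6 were lower in the mean (Penk, Apln, Npy, Nucb2, Grp and Vip) and Cartpt was higher; their median log2 difference was -0.28 and none passed. Over all genes, each by its brightest probe set, 23.8% were lower and 24.7% higher on every treated chip, and 50.6% were lower in the mean. Penk, the enkephalin precursor of enteric nerves, had 297.7, 305.9 and 295.1 in pools 1, 2 and 3 of the octreotide LAR group, against 447.9 on the vehicle chip. The treated values lay close together and all below vehicle, with a log2 difference of -0.56 (limma adjusted p = 0.9998, unadjusted p = 0.052). Cartpt, the precursor of a nerve peptide, was higher on every treated chip, with 488.9, 525.6 and 439.9 against 371.7. Nucb2, the nesfatin precursor, was lower on every treated chip, with 1308.1, 1846.3 and 1491.9 against 1870. Ppy, pancreatic polypeptide, was picked out after its values were seen: it had 177.2, 123.5 and 156 against 41.5, and was too dim on average to test.

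Transcription factors of endocrine cells were mostly dim. Of the 18 listed, 11 had a probe set and 3 were tested; 5 were lower and 6 higher in the mean, none passed, and the median log2 difference was 0.04. Isl1, a factor of several gut endocrine cells, had 465.1, 470.5 and 558.1 on the treated chips, against 401.6 on the vehicle chip, and all treated values were higher, by 0.29 (limma unadjusted p = 0.24). Hhex, a factor of D cells in the pancreas of the mouse, had 201.3, 134 and 126.1, against 123.1, and was too dim to test. Pax6 had 123.9, 85.9 and 103.9, against 110.1, and Neurod1 had 93, 66.1 and 106, against 87.8, with overlap in both.

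Of 11 genes listed as companions of D and A-like cells, 7 had a probe set and 4 were tested. Over the 7, 5 were lower and 2 higher in the mean, beside 50.6% lower over all genes, and the median log2 difference was -0.40. Of the 4 tested, 3 were lower in the mean, with a median log2 difference of -0.21, and none passed. Nnat, neuronatin, had 627.7, 492.5 and 587.1 on the treated chips, against 765.8 on the vehicle chip (limma unadjusted p = 0.085). Serpina1, a protease inhibitor, had 393.9, 661.7 and 440.9, against 647.5, and Rgs4, a regulator of G protein signalling, had 485, 400.1 and 340.3, against 371.7; both overlapped the vehicle value. The 15 listed markers of pancreatic islet and acinar cells all had a probe set; 12 were lower and 3 higher in the mean, beside 50.6% lower over all genes. All 7 that were tested were lower in the mean, with a median log2 difference of -0.71, and none passed. The digestive enzymes Cela2a, Cel and Cpa1 had the smallest p, with log2 differences of -1.42, -1.40 and -1.38 (limma adjusted p = 0.17, 0.17 and 0.46). The summed signal of the list was 43416 to 54499 on the treated chips, against 55073 on the vehicle chip, of which Clps, the pancreatic colipase, gave 39440 to 49879 and 48789.

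**Figure D3:**
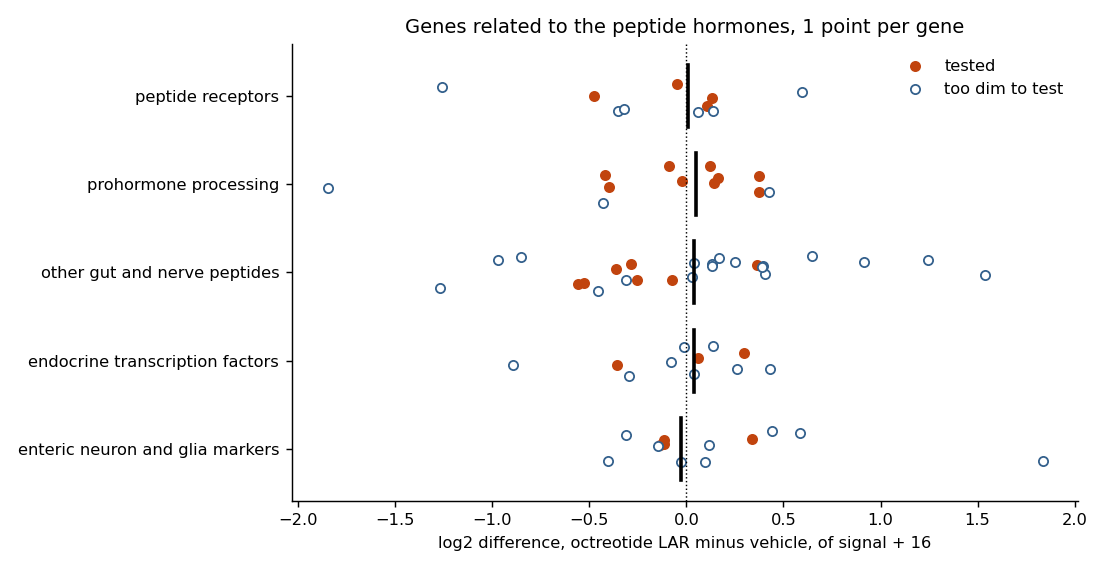
Log2 difference (octreotide LAR minus vehicle, of signal + 16) of the genes in 5 related lists, 1 point per gene by its brightest probe set. Filled points were tested, open points were too dim to test, and the black bar is the median over all points of a list. Each of these medians lies between -0.03 and 0.05. Over the tested genes alone they run from -0.28 (other gut and nerve peptides) to 0.12 (prohormone processing). The ECL list and the companions of D and A-like cells, with medians of -0.47 and -0.40 over all their genes, are not shown.

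The pattern of each hormone over the 3 treated pools was set against that of 7150 genes tested, by the root mean square distance between their log2 differences from vehicle. Cck and Gal were 0.11 apart, Sst and Ghrl 0.15, and Gast was at least 0.49 from any of the others. The genes nearest to Sst were Cpxm2, Copa and Iqsec1, at distances of 0.009 to 0.02, and 360 genes lay within 0.1 of it. The genes nearest to Ghrl were Tmem164, Abcc1 and Tapt1, at 0.03 to 0.04, with 216 genes within 0.1. Luzp1, Nup188 and Agpat2 were nearest to Gast, at 0.06 to 0.09, and 4 genes lay within 0.1. Shank2, Pafah1b2 and Gstk1 were nearest to Cck, at 0.04 to 0.05, and Mknk2, Trmt61a and Oas1a nearest to Gal, at 0.02 to 0.04, with 10 and 13 genes within 0.1. All these distances use the same vehicle chip and only 3 treated chips, so they describe likeness over these chips and carry no test.

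**Figure D4:**
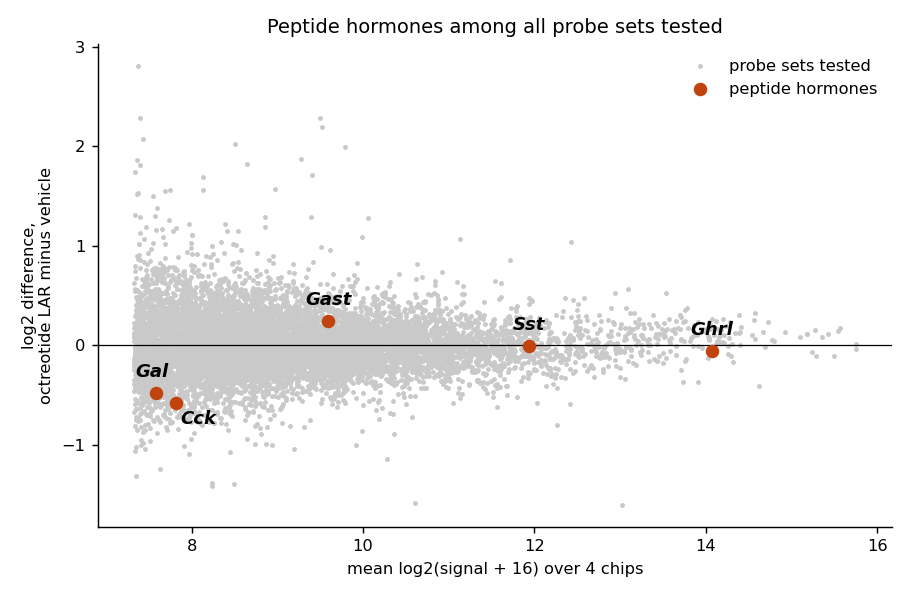
Mean log2(signal + 16) over the 4 chips (horizontal) against the log2 difference, octreotide LAR minus vehicle (vertical), for the 9520 probe sets tested in grey and the 5 hormones in orange. Sst and Ghrl lie at high level near 0, Gast lies slightly above 0, and Cck and Gal lie at low level inside the grey cloud, which is widest there.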

How the data were processed

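RNA was hybridised to Affymetrix RAE230A chips, per the file headers, after total RNA extraction and biotin labelling of cRNA, per the labels' protocols. The authors deposited a table of linear intensities, 1 per chip for each probe set; the algorithm behind them, scaling included, is not given in the sources used here. The trimmed mean (2% off each end) of these intensities lay between 496.8 and 497.2 on all chips, which hides any change in the total amount of messenger RNA. All chips shared 1 lot and 1 hybridisation date and each had its own fluidics module, per the file headers; with 1 vehicle chip, module and treatment cannot be told apart. Groups came from the titles; the vehicle sample's source name also mentions octreotide LAR.

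Values were tested as log2(signal + 16) after removal of probe sets under the 40th percentile of the mean, with limma 3.58.1 in R 4.3.3 (lmFit, eBayes with trend, two-sided, 2 residual and 11.5 prior degrees of freedom), Benjamini-Hochberg adjustment over 9520 probe sets and a threshold of 0.05. The fit gives the vehicle chip the spread of the treated chips, although each of these pools fewer animals. An exact permutation of 4 chips cannot give a one-sided p under 0.25. The number of chips limits the precision.

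Platform symbols were updated by Entrez ID through the GRCr8 gene table (12748 of 12783 probe sets with 1 gene matched; 312 named several and 2771 none here), and a gene with several probe sets was taken by its brightest. The named genes were all hormone probe sets, the 3 nearest patterns and the tissue markers. Examples from the receptor, processing and transcription factor lists and from the 3 smallest p of each other list were named as well. Ppy, Apln, Npy, Grp, Vip, Clps, Elavl4 and the ECL genes beyond the 3 smallest p were named after their values were seen. The members and the 11 lists were chosen with earlier results of these data known. The limma step was tested on simulated data. These gave the vehicle chip the same spread as the treated chips, so that assumption was not tested.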

Additional observations from a re-analysis of the deposited data

How the results depend on the processing

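None of the 5 hormones passed the adjusted threshold under any of the 10 alternatives (other pseudocounts, filters, scalings, no trend, and each treated pool left out); limma adjusted p ran from 0.86 to 0.99999. Cck and Gal kept their direction under all 10. With 1 treated pool left out, the log2 difference ran from -0.059 to 0.060 for Sst, from -0.15 to 0.033 for Ghrl and from -0.026 to 0.43 for Gast, each changing sign once (without pool 1, pool 2 and pool 1), from -0.61 to -0.50 for Cck and from -0.55 to -0.37 for Gal. Cck had its smallest unadjusted p, 0.031, with no trend of the spread on the level. The number of probe sets called in the whole table moved more: 10 as reported, 5 with the filter at the 20th percentile, with quantile normalization or with each chip centred on its 75th percentile, 1 without the trend, 0 without the filter (limma; 776 had an unadjusted p under 0.05), and 31 to 55 with 1 pool left out (53 without pool 1, 55 without pool 2 and 31 without pool 3), fits that rest on fewer chips and the same vehicle chip. The Hdc call was lost without the filter and without the trend (limma adjusted p = 0.095 and 0.15). The cause of these changes between settings was not tested. No paired analysis was possible because the single vehicle pool forms no pairs with the treated pools. No hormone had more than 1 probe set, so no other probe set could be tried. Low signal over an unmeasured background limits what can be said of Cck and Gal.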
